A study of Mus musculus with 14 samples.

Results

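The mesenchymal and epithelial-to-mesenchymal transition (EMT) transcription factors described here are 9 genes taken from the mouse count table by symbol: Twist1, Twist2, Tcf21, Prrx1, Prrx2, Snai1, Snai2, Zeb1 and Zeb2. The table held 55291 symbols, and all 9 genes were among the 20562 with enough counts to be tested. RNA of C57BL/6J mouse cells was sequenced in 14 libraries of 5 groups, in a study of the chemical conversion of fibroblasts into retinal pigment epithelium (RPE), the pigmented cell layer under the photoreceptors. MEF (n = 3) are fibroblasts from E13.5 embryos, and the labels name the first medium as their treatment too. D7 and D18 (n = 3 each) are intermediates after 7 and 18 days in that first medium, M7. M7 held basic FGF and the small molecules CHIR-99021 (an activator of Wnt signalling), LDN193189 (a BMP receptor inhibitor), A 83-01 (an inhibitor of TGF-beta receptors), the Hedgehog agonist Hh-Ag1.5, RG108, BMS-345541 and CKI-7. D32 (n = 3) are cells labelled ciRPE on day 32, in a second medium, M3, with Y27632, nicotinamide, retinoic acid and activin A. P-RPE (n = 2) is untreated primary RPE, for which the labels give the same embryonic tissue as for the other groups and no age of its own. Per the labels, dishes were scraped where induction seemed to have worked, so cells that did not respond are under-represented. The labels do not tell whether replicates are separate cultures or animals. P-values therefore reflect only how far these samples differ, which may be technical.

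Transcription factors of these families hold cells in a mesenchymal state and drive EMT, in which epithelial cells loosen their junctions and become motile. SNAI and ZEB proteins are zinc finger repressors that bind E-box sequences, among them those in the promoter of the E-cadherin gene Cdh1. TWIST proteins and TCF21 are basic helix-loop-helix (bHLH) factors that pair with E proteins such as TCF3, and PRRX proteins are homeodomain factors of limb and craniofacial mesenchyme. RPE is an epithelium of neural origin, and its cells can undergo EMT in retinal scarring.

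Gene positions are those of GENCODE vM21 on GRCm38. Twist1 (chr12:33957671-33959829) and Twist2 (chr1:91801461-91848028) are on the plus strand, as are Prrx2 (chr2:30834972-30881251), Snai1 (chr2:167538195-167542814) and Snai2 (chr16:14705852-14709385). Prrx1 (chr1:163245119-163313710), Zeb2 (chr2:44983632-45117395) and Tcf21 (chr10:22817281-22820174) are on the minus strand. Antisense or other opposite-strand genes with counts overlap Twist2, Prrx1, Zeb1, Zeb2 and Tcf21. The largest group mean among those overlapping genes was 2.87 CPM for Gm10125 in D18, where Zeb1 averaged 73.0 CPM, and Gm29100 averaged 1.38 CPM in MEF, where Twist2 averaged 16.3 CPM. The strand setting of the counting is not stated, so such reads cannot be told apart. Levels in CPM are counts of a gene relative to the library total, with totals scaled by the TMM method.

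Upstream sequences of the Twist and Prrx pairs are shown because Twist2 was called in comparisons where Twist1 was not, and because the Prrx genes were called in opposite directions in D18 vs D7 and in D32 vs D18, and that of Snai1 because it holds an E-box. Each is the 250 bases before the RefSeq start of the gene (GRCm38.p6), and capitals mark the E-box CACCTG, which is CAGGTG read on the other strand.
Twist1, chr12:33957421-33957670, plus strand: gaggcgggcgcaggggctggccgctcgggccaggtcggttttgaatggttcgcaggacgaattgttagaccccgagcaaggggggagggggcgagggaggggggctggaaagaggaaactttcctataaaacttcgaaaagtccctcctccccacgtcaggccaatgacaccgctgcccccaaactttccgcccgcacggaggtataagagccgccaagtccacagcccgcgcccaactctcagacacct
Twist2, chr1:91801211-91801460, plus strand: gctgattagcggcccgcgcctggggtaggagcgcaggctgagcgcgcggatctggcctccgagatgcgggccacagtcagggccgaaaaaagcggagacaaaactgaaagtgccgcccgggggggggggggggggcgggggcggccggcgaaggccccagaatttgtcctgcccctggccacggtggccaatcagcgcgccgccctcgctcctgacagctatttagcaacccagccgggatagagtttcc
Prrx1, chr1:163313651-163313900, minus strand: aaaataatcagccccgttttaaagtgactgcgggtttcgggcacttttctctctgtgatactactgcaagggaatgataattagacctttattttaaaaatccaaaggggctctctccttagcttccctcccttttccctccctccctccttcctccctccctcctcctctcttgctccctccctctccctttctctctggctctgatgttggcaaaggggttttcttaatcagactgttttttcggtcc
Prrx2, chr2:30845117-30845366, plus strand: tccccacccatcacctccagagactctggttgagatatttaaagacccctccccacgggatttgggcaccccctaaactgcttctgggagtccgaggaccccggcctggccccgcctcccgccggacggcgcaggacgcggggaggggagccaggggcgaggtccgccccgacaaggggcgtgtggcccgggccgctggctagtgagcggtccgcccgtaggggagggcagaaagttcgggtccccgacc
Snai1, chr2:167537945-167538194, plus strand: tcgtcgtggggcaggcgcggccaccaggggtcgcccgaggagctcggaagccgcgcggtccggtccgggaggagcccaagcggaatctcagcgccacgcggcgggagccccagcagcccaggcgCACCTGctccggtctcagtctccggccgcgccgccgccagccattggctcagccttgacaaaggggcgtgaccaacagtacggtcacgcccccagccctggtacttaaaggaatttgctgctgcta
The RefSeq table matched 7 of the 9 genes, with 10 upstream windows in all, 4 of them of Zeb2. Among the windows read, CAGGTG or CACCTG was found in that of Snai1 alone, 126 bases before the start, and 17.2% of 32851 mouse windows of this length held it. The general E-box CANNTG, which includes the first motif, was likewise found only in the Snai1 window among those read, against 66.2% of all windows. The Prrx1 window had a GC content of 47.6% and the Prrx2 window one of 70.0%. For the Twist pair the GC contents were 62.4% for Twist1 and 68.8% for Twist2, and the median of all windows was 52.4%.

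Library totals ran from 32352405 to 41390196 counts, so that 1 count equalled 0.0227 to 0.0305 CPM. Changes below are log2 changes with their SE, tested with edgeR's quasi-likelihood test and Benjamini-Hochberg adjustment over all 20562 genes, and a gene was called at an adjusted p under 0.05. The spread was pooled over groups that varied unequally: the common biological coefficient of variation, a relative spread between replicates, was 0.0426 in MEF, 0.158 in D7, 0.2502 in D18, 0.214 in D32 and 0.218 in P-RPE. In these bulk samples, fewer cells of a type and less RNA per cell cannot be told apart.

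**Figure D1:**
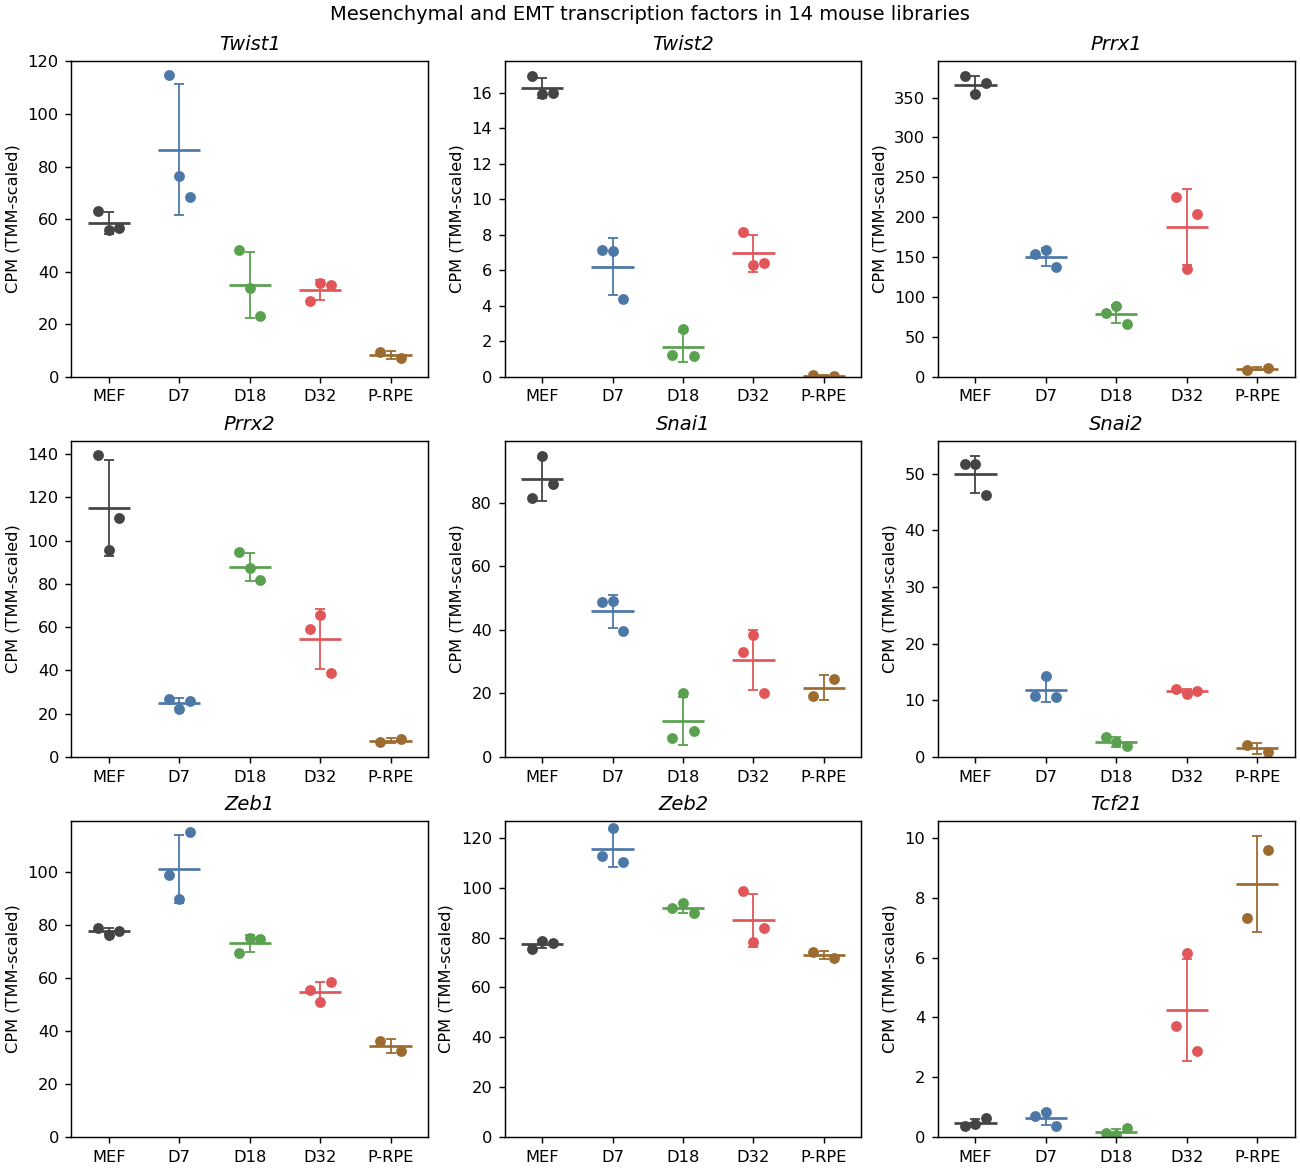
Level of each factor in CPM (vertical axis, from 0, a scale per panel) in the 14 libraries by group. Points are libraries, horizontal lines are means and bars are SD (n = 3, or n = 2 for P-RPE). The highest group was MEF for 5 factors, while Twist1, Zeb1 and Zeb2 were highest in D7, and Tcf21 was highest in P-RPE.

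Twist1 and Twist2, bHLH regulators of cranial and dermal mesenchyme, differed in their course: Twist2 fell in D7 vs MEF, where Twist1 did not pass the test. Twist1 stood at 63.2, 55.8 and 56.6 CPM in MEF, 114.7, 76.3 and 68.3 CPM in D7, 48.3, 33.7 and 23.2 CPM in D18, 28.8, 35.8 and 34.8 CPM in D32, and 9.46 and 7.32 CPM in the P-RPE libraries. Every D7 library was above every MEF library, but the D7 libraries were spread and the change of 0.56 (SE 0.23) had an adjusted p of 0.0528, just outside the threshold. The fall between D18 and D7 was called, at -1.30 (SE 0.24, adjusted p = 2.87e-04). D32 and D18 libraries overlapped, and their difference of -0.08 (SE 0.23) was not called. D32 was lower than MEF by a called log2 change of -0.82 (SE 0.23, adjusted p = 0.00756), and P-RPE was lower than MEF by -2.80 (SE 0.30, adjusted p = 9.61e-07).

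Twist2 stood at 16.9, 15.9 and 15.97 CPM in MEF, 7.14, 7.11 and 4.36 CPM in D7, 1.24, 2.67 and 1.17 CPM in D18, 8.16, 6.28 and 6.42 CPM in D32, and 0.0839 and 0.0536 CPM in the P-RPE libraries. It fell in both steps of the first medium and rose in D32, where its libraries overlapped with those of D7. The P-RPE values rest on 3 and 2 counts. On the summed counts, Twist2 was 238-fold lower in P-RPE than in MEF, with a 95% counting interval of 102 to 733, and 102-fold higher in D32 than in P-RPE, with an interval of 43.5 to 315. These intervals are exact and cover counting error only. The fitted changes were -1.39 (SE 0.27, adjusted p = 4.95e-04) for D7 vs MEF, -1.87 (SE 0.29, adjusted p = 6.39e-05) for D18 vs D7 and 2.03 (SE 0.29, adjusted p = 3.06e-05) for D32 vs D18. D32 remained below MEF, at -1.23 (SE 0.27, adjusted p = 0.00121).

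Tcf21, a bHLH factor known from the mesenchyme of epicardium, kidney and lung, shared the called fall of both Twist genes in D18 vs D7 and then rose above its MEF level. Its libraries held 0.365, 0.443 and 0.624 CPM in MEF, 0.706, 0.818 and 0.377 CPM in D7, 0.140, 0.0534 and 0.285 CPM in D18, 3.71, 6.15 and 2.87 CPM in D32, and 7.33 and 9.59 CPM in the P-RPE libraries. The 3 D18 libraries rest on 5, 2 and 10 counts, and D7 and MEF overlapped. All D32 libraries stood above all MEF, D7 and D18 libraries and below both P-RPE libraries. Tcf21 changed by -1.98 (SE 0.52, adjusted p = 0.00447) in D18 vs D7 and by 4.72 (SE 0.49, adjusted p = 1.18e-06) in D32 vs D18. D32 was higher than MEF by 3.14 (SE 0.43, adjusted p = 1.64e-05), and P-RPE was higher than MEF by 4.14 (SE 0.46, adjusted p = 9.95e-07). The log2 difference of -0.997 between D32 and P-RPE (SE 0.40, adjusted p = 0.0474) was called narrowly: leaving out 1 library took the adjusted p past the threshold for 11 of the 14 libraries, up to 0.236 without P-RPE replicate 2.

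The Prrx pair, whose proteins act together in limb and face mesenchyme, changed in opposite directions in the middle of the protocol. Prrx1 stood at 377, 355 and 368 CPM in MEF, 154, 159 and 138 CPM in D7, 80.0, 89.3 and 66.8 CPM in D18, 225, 135 and 205 CPM in D32, and 8.67 and 11.6 CPM in the P-RPE libraries. Prrx1 thus fell in both steps of the first medium and was higher again in D32, whose libraries overlapped with D7. Prrx2 stood at 139, 95.5 and 110.4 CPM in MEF, 26.6, 22.2 and 25.9 CPM in D7, 94.5, 87.3 and 81.7 CPM in D18, 59.3, 65.5 and 39.0 CPM in D32, and 6.86 and 8.25 CPM in the P-RPE libraries. Groups next to each other in the order of Prrx2 levels did not overlap. D18 was the lowest cultured group for Prrx1 and the second highest group for Prrx2.

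Between D7 and MEF both Prrx genes fell, by -1.28 (SE 0.17, adjusted p = 1.27e-05) for Prrx1 and -2.21 (SE 0.18, adjusted p = 9.36e-08) for Prrx2 on the log2 scale. Between D18 and D7 Prrx1 changed by -0.93 (SE 0.17, adjusted p = 2.36e-04) and Prrx2 by 1.82 (SE 0.18, adjusted p = 6.47e-07). Between D32 and D18 the signs were exchanged, at 1.26 (SE 0.17, adjusted p = 1.61e-05) for Prrx1 and -0.69 (SE 0.17, adjusted p = 0.00363) for Prrx2. The net result was alike in size: D32 was lower than MEF by -0.96 (SE 0.17, adjusted p = 1.66e-04) for Prrx1 and by -1.08 (SE 0.17, adjusted p = 8.61e-05) for Prrx2. P-RPE held 2.77% of the MEF mean of Prrx1 and 6.57% of that of Prrx2, log2 changes of -5.17 (SE 0.24) and -3.93 (SE 0.24), both called.

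The Snai genes, the zinc finger repressors first linked to loss of E-cadherin, fell together to day 18. Snai1 stood at 81.4, 94.8 and 85.8 CPM in MEF, 48.6, 49.0 and 39.7 CPM in D7, 5.93, 20.0 and 8.27 CPM in D18, 33.0, 38.3 and 19.97 CPM in D32, and 19.1 and 24.5 CPM in the P-RPE libraries. The D32 libraries overlapped with P-RPE, and 1 D18 library reached the lower end of both. Snai2 stood at 51.7, 51.8 and 46.2 CPM in MEF, 10.7, 14.3 and 10.5 CPM in D7, 3.60, 2.67 and 1.85 CPM in D18, 11.9, 11.2 and 11.6 CPM in D32, and 2.18 and 0.804 CPM in the P-RPE libraries. Its D32 libraries fell within the range of D7, and its P-RPE and D18 libraries overlapped.

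Snai2 changed by -2.07 (SE 0.25, adjusted p = 6.29e-06) in D7 vs MEF, -2.13 (SE 0.27, adjusted p = 8.63e-06) in D18 vs D7 and 2.10 (SE 0.27, adjusted p = 1.06e-05) in D32 vs D18. At D32 it stood at 23.2% of its MEF mean, a change of -2.11 (SE 0.25, adjusted p = 5.01e-06). Snai1 changed by -2.00 (SE 0.36, adjusted p = 3.85e-04) in D18 vs D7 and by 1.41 (SE 0.36, adjusted p = 0.00451) in D32 vs D18. Its D7 vs MEF change of -0.93 (SE 0.35) had an adjusted p of 0.0357, and leaving out any 1 MEF or D7 library, or P-RPE replicate 2, took it past the threshold, up to 0.0882, with the change between -1.01 and -0.87. In D32 vs P-RPE, Snai1 differed by 0.48 (SE 0.39, adjusted p = 0.323), which was not called, while Snai2 was higher in D32 by 2.96 (SE 0.34, adjusted p = 3.67e-06). P-RPE was lower than MEF by -2.00 (SE 0.42, adjusted p = 7.67e-04) for Snai1 and by -5.07 (SE 0.36, adjusted p = 8.78e-09) for Snai2. P-RPE thus held 24.96% of the MEF mean of Snai1 and 2.99% of that of Snai2.

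The Zeb genes, which encode zinc finger and homeodomain repressors of epithelial genes, moved least. Zeb1 (chr18:5591860-5775467, plus strand) stood at 78.7, 76.3 and 77.6 CPM in MEF, 98.7, 89.6 and 115 CPM in D7, 69.3, 74.9 and 74.7 CPM in D18, 55.2, 50.8 and 58.3 CPM in D32, and 36.0 and 32.4 CPM in the P-RPE libraries. Its groups did not overlap anywhere in the order D7, MEF, D18, D32 and P-RPE. Zeb2 stood at 75.5, 78.6 and 77.8 CPM in MEF, 113, 124 and 110.1 CPM in D7, 91.9, 93.7 and 90.0 CPM in D18, 98.6, 78.3 and 83.7 CPM in D32, and 74.1 and 71.7 CPM in the P-RPE libraries. D7 was the high group for both, and the Zeb2 libraries of D32 overlapped with those of D18 and of MEF.

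Both Zeb genes rose in D7 vs MEF, Zeb1 by 0.38 (SE 0.10, adjusted p = 0.00448) and Zeb2 by 0.58 (SE 0.09, adjusted p = 9.35e-05). Without D7 replicate 3, the highest, the Zeb1 change was 0.25 with an adjusted p of 0.0605. Zeb1 then fell at each step, by -0.47 (SE 0.10, adjusted p = 9.70e-04) in D18 vs D7 and -0.41 (SE 0.10, adjusted p = 0.00266) in D32 vs D18, and D32 was lower than MEF by -0.50 (SE 0.10, adjusted p = 5.49e-04). Zeb2 fell by -0.33 (SE 0.09, adjusted p = 0.00711) in D18 vs D7 and was not called in any comparison that follows. Its changes were -0.08 (SE 0.09) in D32 vs D18, 0.17 (SE 0.09) in D32 vs MEF, -0.08 (SE 0.11) in P-RPE vs MEF and 0.25 (SE 0.11) in D32 vs P-RPE, with adjusted p of 0.488, 0.135, 0.486 and 0.0555 in that order. P-RPE held 94.3% of the MEF mean of Zeb2 and 44.1% of that of Zeb1, a change of -1.18 for Zeb1 (SE 0.12, adjusted p = 3.09e-07).

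The 9 factors differed widely in how far they moved across the 5 groups. The range of log2 group means, computed with a prior count of 2, was 7.07 for Twist2, 5.46 for Tcf21, 5.18 for Prrx1, 5.17 for Snai2, 3.91 for Prrx2, 3.33 for Twist1, 3.13 for Snai1, 1.56 for Zeb1 and 0.66 for Zeb2. The median range of 12034 genes with a mean of at least 5 CPM was 1.53, near the Zeb1 value. Of those genes, 12.4% had a smaller range than Zeb2 and 94.5% a smaller range than Twist2. Per kilobase of annotated exon, the highest mean level in MEF was that of Prrx2, at 58.7 CPM per kb, followed by Snai1 at 53.9, Twist1 at 36.0, Prrx1 at 33.1, Snai2 at 24.7, Zeb1 at 7.55, Twist2 at 5.13, Zeb2 at 3.88 and Tcf21 at 0.203 CPM per kb. At D32 the first 4 places were held by Prrx2 at 27.8, Twist1 at 20.4, Snai1 at 18.8 and Prrx1 at 17.0 CPM per kb. In P-RPE the first was Snai1, at 13.45 CPM per kb, followed by Twist1 at 5.15, Prrx2 at 3.85, Zeb2 at 3.66, Tcf21 at 3.60 and Zeb1 at 3.33 CPM per kb, with the other 3 below 1. The exon length is the union over all transcripts, and the isoforms in use were not measured.

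**Figure D2:**
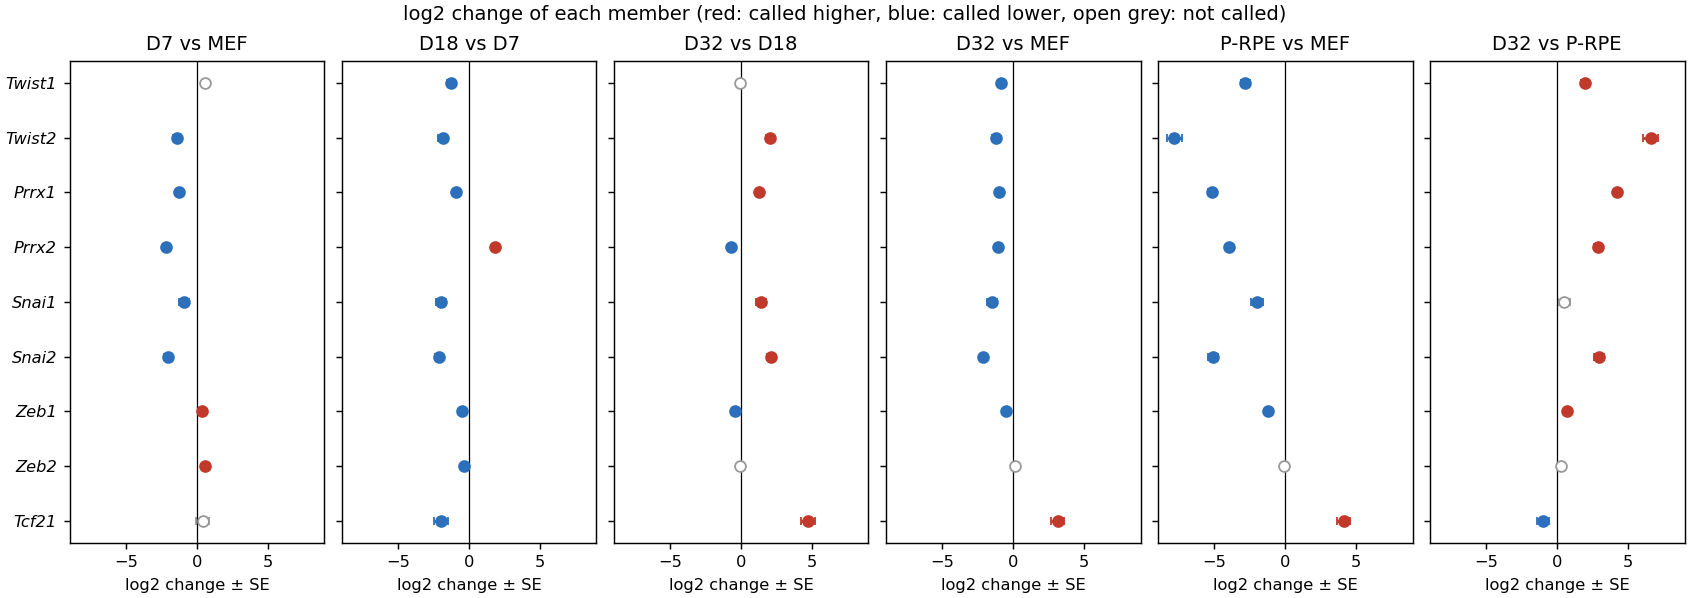
Log2 change of each factor (horizontal axis, with SE bars) in the 6 comparisons, 1 panel each, from edgeR's quasi-likelihood model. Filled red points are called higher in the group named first, filled blue points lower, and open grey points are not called. Twist2 has the longest shifts in both P-RPE panels, at -7.82 and 6.60, and the Zeb point farthest from 0 is Zeb1 in P-RPE vs MEF, at -1.18.

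Set side by side, the comparisons show how many of the 9 factors changed at each step. In D7 vs MEF, 2 rose (Zeb1 and Zeb2), 5 fell and 2 were not called (Twist1 and Tcf21), where 55.0% of all tested genes were called, 28.5% higher and 26.5% lower. The median log2 change was -0.93 over the 9 factors and 0.04 over all genes. In D18 vs D7, 1 rose (Prrx2) and 8 fell, against 56.6% of all genes called, 29.2% higher and 27.4% lower. Here the median was -1.30 over the factors and 0.00 over all genes. In D32 vs D18, 5 rose (Twist2, Tcf21, Prrx1, Snai1 and Snai2), 2 fell (Prrx2 and Zeb1) and 2 were not called, where 56.0% of all genes were called, 29.9% higher and 26.1% lower. The median was 1.26 over the factors and 0.07 over all genes.

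The D32 mean lay between the means of MEF and P-RPE for each factor but Zeb2, whose D32 mean was above both. In D32 vs MEF, 1 rose (Tcf21), 7 fell and Zeb2 was not called, where 60.2% of all genes were called, 35.6% higher and 24.6% lower. The median was -0.96 over the factors and 0.26 over all genes. In P-RPE vs MEF the same split was found, with 1 higher (Tcf21), 7 lower and Zeb2 not called, where 70.7% of all genes were called, 39.3% higher and 31.4% lower. The median was -2.80 over the factors and 0.18 over all genes. These 2 comparisons share the MEF libraries. In D32 vs P-RPE, 6 were higher in D32, 1 was lower (Tcf21) and 2 were not called (Snai1 and Zeb2), where 53.9% of all genes were called, 27.1% higher and 26.8% lower. The median was 1.98 over the factors and 0.02 over all genes. The D32 excess over P-RPE was 1.98 (SE 0.29, adjusted p = 4.76e-05) for Twist1, 4.21 (SE 0.23, adjusted p = 3.78e-09) for Prrx1, 2.85 (SE 0.22, adjusted p = 9.11e-08) for Prrx2 and 0.68 (SE 0.11, adjusted p = 1.59e-04) for Zeb1.

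Libraries of the 2 groups did not overlap for 8 of the 9 factors in D7 vs MEF (67.8% of all genes), 9 in D18 vs D7 (63.0%), 6 in D32 vs D18 (58.7%), 8 in D32 vs MEF (67.6%), 9 in P-RPE vs MEF (82.5%) and 8 in D32 vs P-RPE (67.3%).

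**Figure D3:**
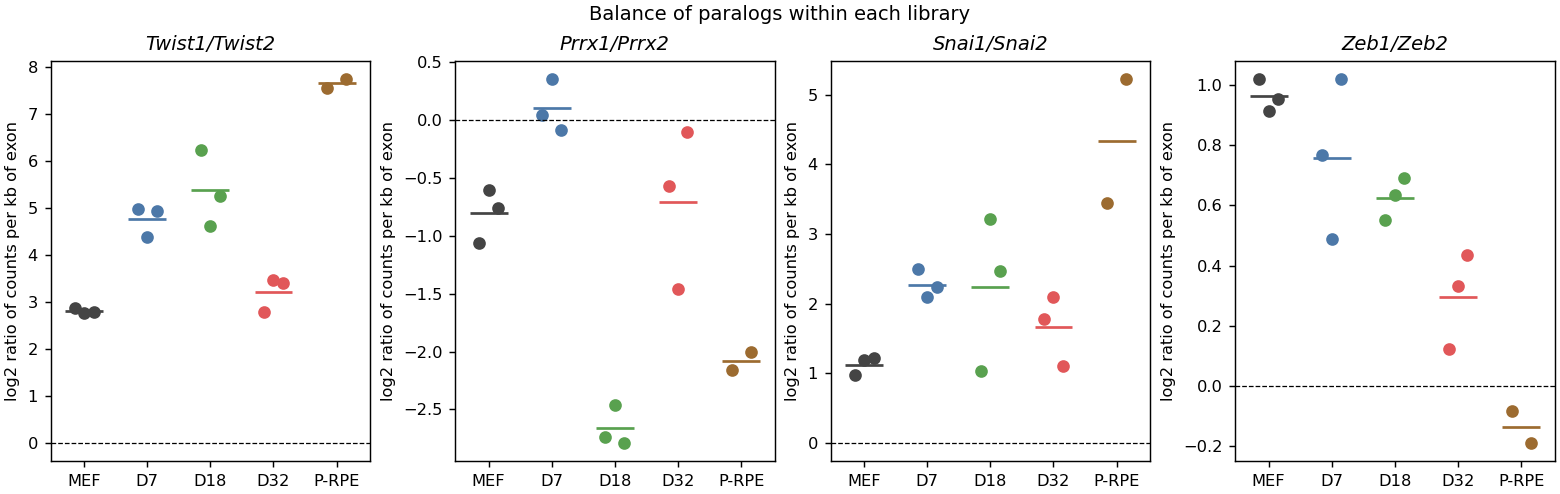
Balance of the 4 paralog pairs in each library, as the log2 ratio of counts per kilobase of exon (vertical axis, the dashed line marks equal levels). Points are libraries and lines are group means (n = 3, or n = 2 for P-RPE). D18 and P-RPE lie lowest for Prrx1 over Prrx2, P-RPE lies highest for Twist1 over Twist2, and Zeb1 over Zeb2 crosses the line in P-RPE alone.

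The balance within each pair was compared in every library, since a ratio within a library does not depend on the scaling between libraries. Twist1 exceeded Twist2 per kilobase in all 14 libraries, by 6.83 to 7.27 times in MEF, 20.9 to 31.2 times in D7, 24.5 to 75.3 times in D18, 6.88 to 11.1 times in D32 and in P-RPE 189 to 213 times. D32 libraries reached down into the MEF range. Prrx1 was at 0.479 to 0.658 times the level of Prrx2 per kilobase in MEF, 0.942 to 1.27 times in D7, 0.145 to 0.181 times in D18, 0.364 to 0.929 times in D32 and in P-RPE 0.224 to 0.2496 times. Per kilobase, the pair was therefore near parity in D7 and most tilted to Prrx2 in D18. Without division by exon length, the mean log2 count ratio was 2.60 in D7 and -0.17 in D18. Where parity lies thus depends on the exon length used, while differences between groups do not.

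Snai1 over Snai2 per kilobase was 1.96 to 2.32 in MEF, 4.26 to 5.64 in D7, 2.05 to 9.31 in D18, 2.14 to 4.27 in D32 and in P-RPE 10.9 to 37.4. The D18 range held that of D7 and part of that of MEF. Zeb1 over Zeb2 per kilobase was 1.89 to 2.03 in MEF, 1.40 to 2.03 in D7, 1.47 to 1.61 in D18, 1.09 to 1.35 in D32 and in P-RPE 0.878 to 0.944. Per kilobase, Zeb2 was thus the more abundant of the pair in P-RPE alone. Without division by exon length, the mean log2 count ratio was 0.004 in MEF, -0.20 in D7, -0.33 in D18, -0.66 in D32 and -1.09 in P-RPE. Which of the pair was the more abundant therefore depends on the exon length used. Of 24 tests, 4 pairs in 6 comparisons, 16 had no overlap between the groups' libraries. For the levels of single genes, the share of all tested genes without overlap ran from 58.7% to 82.5% over these comparisons. No such share was computed for ratios of other gene pairs. The largest differences of mean log2 ratio were 4.84 for Twist1 over Twist2 in P-RPE vs MEF and -4.43 in D32 vs P-RPE, and the Prrx pair differed by -2.76 in D18 vs D7. With 3 libraries against 3, the two-sided exact permutation test cannot go below p = 0.1, and the comparisons with P-RPE did not go below 0.2. No pair passed the threshold, and the lowest p adjusted over the 24 tests was 0.3.

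The genes whose pattern over the 5 groups was most like that of each factor are given as a description, over 5 group means and without a p. Likeness is the root mean square difference of log2 group means, each centred on its own mean, among 12033 other genes with a mean of at least 5 CPM (12034 for Tcf21). The nearest to Snai2 were Cks2, which encodes a subunit of cyclin-dependent kinases, at 0.12, the cyclin gene Ccne2 at 0.15 and Foxm1 at 0.17. For Prrx1 they were Rin1 at 0.17, Col1a1, a chain of type I collagen, at 0.22 and Adam12 at 0.26. Ckap2 at 0.17, Pappa at 0.35 and Dnm3os at 0.35 were nearest to Twist2, and Gdnf at 0.16, Stc2 at 0.19 and Zmat3 at 0.21 to Twist1. For Snai1 they were Plk2 at 0.13, BC055324 at 0.14 and Tnfrsf10b at 0.18, and for Prrx2 Cfap157 at 0.23, Map6 at 0.31 and Csf1 at 0.31. Zeb1 was nearest to Nfkb2 at 0.10, Nit2 at 0.11 and Gas8 at 0.11, and Zeb2, with its small range, to Cnppd1 at 0.05, Dusp11 at 0.06 and Zdhhc21 at 0.07. Tcf21 had no gene as near, the first 3 being Shisa2 at 0.37, Pde5a at 0.43 and C130074G19Rik at 0.44. Among the 9 factors themselves, the nearest pairs were Zeb1 and Zeb2, 0.38 apart, Twist1 and Zeb1, 0.63 apart, and Twist2 and Prrx1, 0.72 apart, and the farthest were Tcf21 and Twist2, 3.89 apart.

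**Figure D4:**
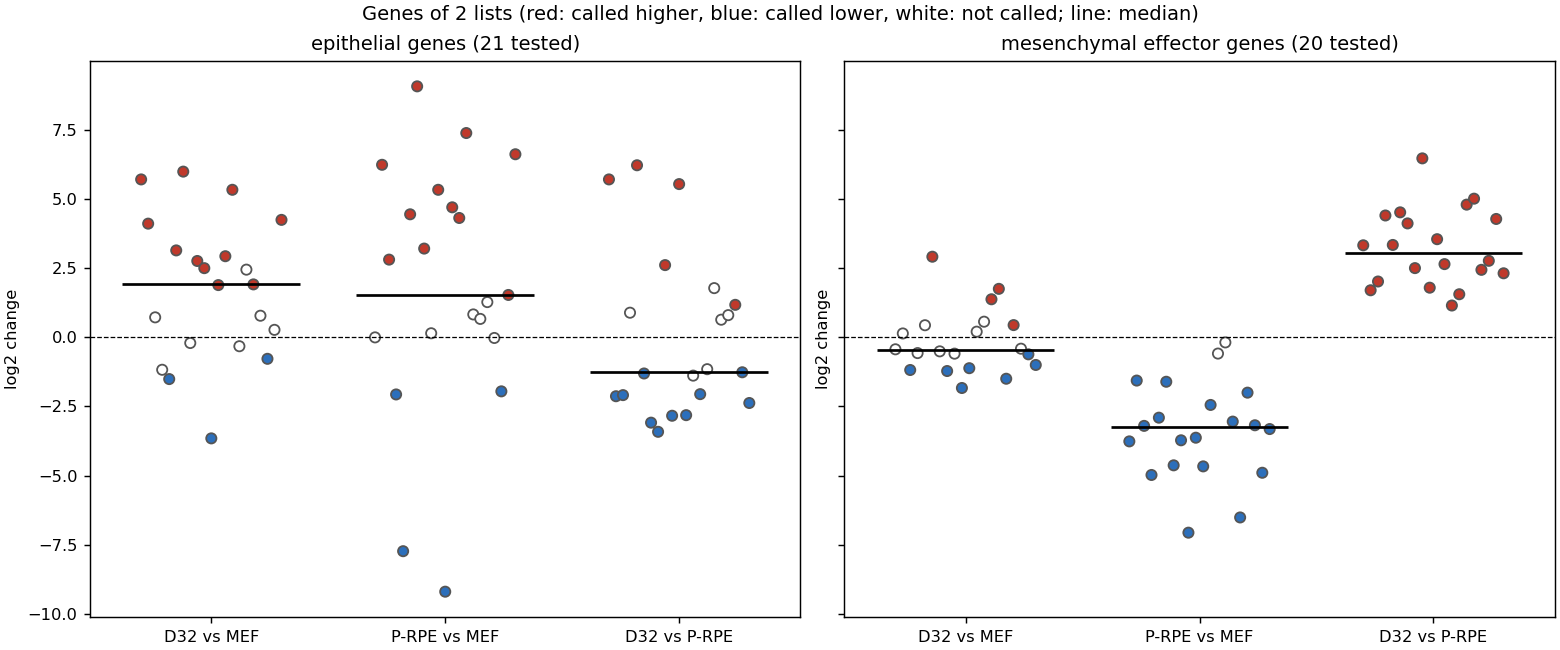
Log2 change (vertical axis) of each tested gene of the epithelial list and of the list of mesenchymal effector genes in D32 vs MEF, P-RPE vs MEF and D32 vs P-RPE. Red points are called higher in the group named first, blue lower, white points are not called, and lines are medians. A gene with 0 counts in a group is drawn at its fitted value, which is no bound. All 20 effector genes are higher in D32 than in P-RPE.

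Genes that these factors are known to act on were read in the same fit. Of 21 tested epithelial genes of 22 listed, 11 were higher, 3 lower and 7 not called in D32 vs MEF (median 1.92), and 11 were higher, 4 lower and 6 not called in P-RPE vs MEF (median 1.53). In D32 vs P-RPE, 5 were higher, 10 lower and 6 not called (median -1.26). Over all tested genes, 35.6% were higher and 24.6% lower in D32 vs MEF (median 0.26). The shares were 39.3% and 31.4% in P-RPE vs MEF (median 0.18), and 27.1% and 26.8% in D32 vs P-RPE (median 0.02). With a mean of at least 5 CPM required, fewer of the epithelial genes were tested, and 6 were called in D32 vs MEF, 7 in P-RPE vs MEF and 7 in D32 vs P-RPE. Cdh1, the E-cadherin gene and textbook target of SNAI and ZEB repression, was singled out after its values were seen. It averaged 5.05 ± 0.790 CPM in D32 and 0.289 ± 0.116 CPM in MEF (SD, n = 3 each), a change of 4.11 (SE 0.37, adjusted p = 2.20e-07), and 22.1 ± 4.05 CPM in P-RPE (n = 2). Crb3, an apical polarity gene, averaged 2.66 ± 0.342 CPM in D32 and 0.0392 ± 0.0340 CPM in MEF, and 22.6 ± 1.02 CPM in P-RPE. Krt19, a keratin, went against the list, at 10.4 ± 3.13 CPM in D32 and 131 ± 6.08 CPM in MEF, a change of -3.65 (SE 0.21, adjusted p = 2.76e-09).

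The epithelial genes changed in steps. In D7 vs MEF, 5 were higher, 11 lower and 5 not called (median -0.54), in D18 vs D7 8 were higher, 3 lower and 10 not called (median 0.91), and in D32 vs D18 15 were higher, 1 lower and 5 not called (median 1.95). Over all tested genes, 28.5% were higher and 26.5% lower in D7 vs MEF (median 0.04). The shares were 29.2% and 27.4% in D18 vs D7 (median 0.00), and 29.9% and 26.1% in D32 vs D18 (median 0.07). The lists below have the same shares and medians of all genes beside them. Dsp, a desmosome gene, averaged 18.4 ± 6.29 CPM in D32 and 0.236 ± 0.167 CPM in D18, a change of 6.24 (SE 0.39, adjusted p = 1.24e-08). In that same step 5 of the 9 EMT factors were higher, Prrx2 and Zeb1 were lower, and Twist1 and Zeb2 were not called. Thus 15 epithelial genes and 5 of these factors were higher in D32 than in D18. Whether they were higher in the same cells was not tested.

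Mesenchymal effector genes, 20 tested of 20 listed, were called in both directions in D32 vs MEF and were all higher in D32 than in P-RPE. In D32 vs MEF 4 were higher, 7 lower and 9 not called (median -0.47), in P-RPE vs MEF 0 were higher, 18 lower and 2 not called (median -3.26), and in D32 vs P-RPE all 20 were higher (median 3.05). Fn1, which encodes fibronectin, averaged 7365 ± 1703 CPM in D32 and 82.7 ± 35.5 CPM in P-RPE, a change of 6.48 (SE 0.43, adjusted p = 2.69e-08). Against MEF, at 11073 ± 499 CPM, the D32 level of Fn1 was not called (-0.59, SE 0.28, adjusted p = 0.0825). Col3a1, a fibrillar collagen, averaged 3870 ± 973 CPM in D32 and 512 ± 8.25 CPM in MEF, a change of 2.92 (SE 0.44, adjusted p = 8.07e-05). In D7 vs MEF 4 of the 20 were higher, 12 lower and 4 not called (median -0.95), in D18 vs D7 6 were higher, 8 lower and 6 not called (median -0.11), and in D32 vs D18 10 were higher, 3 lower and 7 not called (median 0.99).

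Other mesenchymal transcription factors, 18 tested of 18, were mostly called lower in D18 vs D7 and higher in D32 vs D18. In D7 vs MEF 4 were higher, 7 lower and 7 not called (median -0.27), in D18 vs D7 2 were higher, 13 lower and 3 not called (median -1.41), and in D32 vs D18 11 were higher, 4 lower and 3 not called (median 1.41). In D32 vs MEF 5 were higher, 9 lower and 4 not called (median -0.37), in P-RPE vs MEF 3 were higher, 12 lower and 3 not called (median -1.25), and in D32 vs P-RPE 12 were higher, 2 lower and 4 not called (median 1.27). Foxf2, a forkhead factor of mesenchyme, averaged 101 ± 22.8 CPM in D32 and 0.773 ± 0.341 CPM in D18, a change of 7.02 (SE 0.28, adjusted p = 1.12e-10). Tbx15, a T-box factor of skeletal and dermal mesenchyme, averaged 15.1 ± 2.15 CPM in D32 and 1.72 ± 0.343 CPM in P-RPE, a change of 3.13 (SE 0.34, adjusted p = 2.88e-06).

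TGF-beta signalling is a known inducer of Snai and Zeb genes. The first medium held an inhibitor of its receptors, and the second held activin A, a ligand of the same superfamily. Medium and day changed together between D18 and D32 and cannot be told apart. In that step Snai1 and Snai2 were called higher, Zeb1 was called lower and Zeb2 was not called. A link between the media and these genes was not tested. The list held 14 symbols for 13 genes, since Ctgf is the older symbol of Ccn2, and all 13 genes were tested. In D7 vs MEF 0 were higher, 6 lower and 7 not called (median -0.42), in D18 vs D7 1 was higher, 7 lower and 5 not called (median -0.45), and in D32 vs D18 11 were higher, 0 lower and 2 not called (median 2.21). Ccn2, a matricellular gene that TGF-beta induces, averaged 2196 ± 495 CPM in D32 and 39.6 ± 24.6 CPM in D18, a change of 5.79 (SE 0.41, adjusted p = 8.20e-08). In D32 vs MEF 4 were higher, 3 lower and 6 not called (median 0.09), in P-RPE vs MEF 0 were higher, 10 lower and 3 not called (median -0.81), and in D32 vs P-RPE 10 were higher, 0 lower and 3 not called (median 0.76). Without either P-RPE library, 6 of the 13 were called in D32 vs P-RPE, all higher.

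Partners, cofactors and opponents of the factors were read in D32 vs MEF and P-RPE vs MEF. Of 7 bHLH partners and Id inhibitors, 2 were higher, 3 lower and 2 not called in D32 vs MEF, and 1 was higher, 4 lower and 2 not called in P-RPE vs MEF, where 3 were called without P-RPE replicate 1. Tcf3, the E protein partner of TWIST and TCF21, averaged 103 ± 31.1 CPM in D32 and 212 ± 9.41 CPM in MEF, a change of -1.03 (SE 0.16, adjusted p = 4.74e-05). The 2 called higher in D32 vs MEF were Tcf4, another E protein gene, by 0.36 (SE 0.09, adjusted p = 0.00360), and Id4, an inhibitor of bHLH factors, by 1.01 (SE 0.37, adjusted p = 0.0319). Of 10 corepressor cofactors 0 were higher, 9 lower and 1 not called in D32 vs MEF, and 1 was higher, 7 lower and 2 not called in P-RPE vs MEF. Ajuba, a LIM protein that binds SNAI proteins, averaged 66.4 ± 8.90 CPM in D32 and 182 ± 5.96 CPM in MEF, a change of -1.45 (SE 0.15, adjusted p = 1.37e-06). Ctbp2, a corepressor bound by ZEB proteins, was the 1 called higher in P-RPE, at 189 ± 3.36 CPM against 77.4 ± 2.78 CPM in MEF, a change of 1.29 (SE 0.11, adjusted p = 4.11e-08).

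Of 12 factors that oppose EMT, 8 were tested: 4 were higher, 3 lower and 1 not called in D32 vs MEF, and 4 were higher, 2 lower and 2 not called in P-RPE vs MEF. Klf5, an epithelial zinc finger factor, was among the lower ones, at 16.4 ± 2.66 CPM in D32 and 76.5 ± 7.53 CPM in MEF, a change of -2.22 (SE 0.17, adjusted p = 4.31e-08). Of 14 family relatives, 12 were tested: 4 were higher, 5 lower and 3 not called in D32 vs MEF, and 3 were higher, 6 lower and 3 not called in P-RPE vs MEF. Hand2, a bHLH factor of heart and limb, averaged 0.136 ± 0.102 CPM in D32 and 9.38 ± 1.91 CPM in MEF, a change of -6.06 (SE 0.42, adjusted p = 3.75e-08), and had 0 counts in P-RPE.

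Marker genes of other cell types differed between the groups too. Of 10 RPE markers, 7 were at 0 in all MEF libraries, Rpe65 among them, and all 10 had counts in D32 and in P-RPE. Their summed level was 3.94 to 4.11 CPM in MEF, 3931 to 7894 CPM in D32 and in P-RPE 54205 to 62737 CPM, so D32 carried the markers of its label at a lower level than P-RPE. All 8 fibroblast markers had counts in every group, and their sum was 10661 to 11113 CPM in MEF, 9039 to 9693 CPM in D7, 3315 to 15208 CPM in D18, 10069 to 15851 CPM in D32 and in P-RPE 1663 to 1868 CPM. Astrocyte and neural progenitor markers summed to 21.7 to 22.8 CPM in MEF, 1035 to 1492 CPM in D7, 23513 to 34930 CPM in D18, 1862 to 2007 CPM in D32 and in P-RPE 103 to 316 CPM. All 8 macrophage markers and all 8 endothelial markers had counts in P-RPE, where they summed to 1100 to 1158 CPM and 672 to 785 CPM, and in D32, where they summed to 121 to 212 CPM and 170 to 228 CPM. In MEF the macrophage markers summed to 34.1 to 38.6 CPM and the endothelial markers to 53.1 to 58.3 CPM, with Tie1 at 0. Pericyte markers summed to 476 to 507 CPM in MEF, 205 to 291 CPM in D7 and 87.0 to 122 CPM in D18. Their sum was 303 to 393 CPM in D32 and 705 to 715 CPM in P-RPE. Red cell markers summed to at most 0.579 CPM in MEF, 0.326 CPM in D7 and 0.454 CPM in D18. Their sum was 102 to 204 CPM in D32 and 974 to 1779 CPM in P-RPE. Rod markers summed to 0.443 to 1.34 CPM in MEF, 1.82 to 2.05 CPM in D7 and 3.55 to 4.30 CPM in D18. Their sum was 5.96 to 48.7 CPM in D32 and 866 to 2444 CPM in P-RPE. Neural crest and Schwann markers summed to 45.3 to 50.4 CPM in MEF, 88.9 to 137 CPM in D7 and 203 to 307 CPM in D18. Their sum was 111 to 115 CPM in D32 and 434 to 593 CPM in P-RPE. The part of these cell types in the levels of the 9 factors was not tested.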

How the data were processed

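RNA was measured in 14 mouse libraries of 5 groups, taken with their replicate numbers from the sample titles. The deposited table holds counts as whole numbers per gene symbol. Per the submitters' processing notes, STAR 2.7.11a, featureCounts of Subread, edgeR 4.0.16 and limma 3.58.1 were used with the builds mm10, GRCm38 and GRCh38; strand, multiple matches and annotation release are not given in the sources used here, so paralogs could share reads. A human table of 10 columns was not used. Counts were modelled here with edgeR 4.0.16 in R 4.3.3 (TMM scaling, filterByExpr by group, robust quasi-likelihood fit of 5 group means), with Benjamini-Hochberg adjustment over 20562 of 55291 symbols and calls at an adjusted p under 0.05. The SE is the log2 change over the square root of F. The pipeline was tested on simulated data. Paralog ratios add 0.5 to each count and were tested by two-sided exact permutation in SciPy 1.17.1. Exon lengths are from GENCODE vM21, in which 53292 symbols (96.4%) were found, and upstream sequences are from RefSeq. The 9 genes and all lists were chosen with earlier results of these data known. Text names all 9 factors, the 3 genes nearest in pattern to each, and from each list some of the 2 largest called changes each way and the most abundant gene not called. Replicate libraries differed by more than sampling noise (chi-square per degree of freedom 3.56 to 104). Same-numbered replicates did not deviate together, so the numbers were not taken as pairs. Alternatives were RLE size factors, totals alone, no filter, a mean of at least 5 CPM, a replicate block, the 2 groups alone, DESeq2 1.42.0, limma-voom, a ratio pseudocount of 2 and leaving out each library.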

Additional observations from a re-analysis of the deposited data

How the results depend on the processing

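The number of the 9 factors called stayed within 1.5 times under all 132 alternatives over the 6 comparisons. Of the alternatives of single changes, 1137 kept direction and side of the threshold, 23 lost a call, 17 gained one and 5 turned an uncalled difference: Twist1 in D32 vs D18 was 0.023 with library totals alone, 0.22 without D18 replicate 1 and 0.013 without D32 replicate 1 (lowest -0.31, highest 0.22 over left-out libraries), Zeb2 in D32 vs D18 was 0.015 with totals alone, and Zeb2 in P-RPE vs MEF was 0.013 with a mean of at least 5 CPM, a filter that removes Tcf21. Twist1 in D7 vs MEF was called with totals alone (0.88), the 5 CPM filter, the 2 groups alone, limma-voom and without D7 replicate 3, D18 replicate 1 or D18 replicate 3. Snai1 in D7 vs MEF was lost with totals alone (adjusted p = 0.155) and with no filter. Zeb2 was called in D32 vs MEF with totals alone, the 5 CPM filter and without D32 replicate 2, and in D32 vs P-RPE with totals alone and without any D7 library, D18 replicate 2 or D32 replicate 2. Totals alone shifted the median gene by 0.32 in D7 vs MEF, -0.19 in D18 vs D7, 0.20 in D32 vs MEF and 0.23 in D32 vs P-RPE, and the split of higher to lower calls over all genes was 8074 to 3512 against 5852 to 5450 in D7 vs MEF, 4850 to 7059 against 6011 to 5634 in D18 vs D7 and 6979 to 4260 against 5564 to 5516 in D32 vs P-RPE. The higher share was 69.1% against 59.2% in D32 vs MEF. With the 5 CPM filter, the epithelial genes called were 7 in D7 vs MEF, 6 in D18 vs D7, 7 in D32 vs D18, 6 in D32 vs MEF, 7 in P-RPE vs MEF and 7 in D32 vs P-RPE, since fewer genes were tested, and in D32 vs MEF and P-RPE vs MEF they were 2 and 1 of the factors opposing EMT and 3 and 3 of the family relatives. The TGF-beta list had 10 calls in D7 vs MEF with the 2 groups alone and 4 in D32 vs MEF with no filter, where the bHLH list had 3. Leaving out a library gave 6 to 10 TGF-beta calls in D32 vs P-RPE and 3 to 5 bHLH calls in P-RPE vs MEF. It moved the Prrx1 over Prrx2 difference in D32 vs MEF between -0.21 and 0.47 and the Snai1 over Snai2 difference in D18 vs D7 between -0.52 and 0.57. Across 26 same-numbered pairs, the correlation of deviations ran from -0.0967 to 0.0953, the same-numbered library was the best match in 13 of the 26, and with the replicate block Twist1 in D7 vs MEF was called (0.53, adjusted p = 0.0340), Tcf21 in D32 vs P-RPE was not (-0.97, adjusted p = 0.0737) and no other call of the 9 factors changed. Depth limits Twist2 in P-RPE and Tcf21 at D18, which rest on 5 and 17 counts.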
